A study of Mus musculus with 4 samples.

Results

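Of the 2726 RFX2 peaks in the combined list from mouse testis, 271 (9.94%, 95% Wilson interval 8.87 to 11.1) met no promoter and overlapped an exon of a protein-coding gene by at least 1 bp. A promoter was the region from 1000 bp upstream to 500 bp downstream of the 5′-most annotated transcription start site (TSS) of a gene, and exons were those of all protein-coding transcripts of build GRCm38. No peak height entered this choice. The remaining peaks comprised 837 promoter, 587 intron and 1031 intergenic peaks. The 271 exon peaks fell in 267 genes, 7 of which held 2 exon peaks, and 3 peaks met exons of 2 genes at once. Because a peak had a median width of 884 bp, overlap with an exon did not place the site of binding in it, and the summit, the position of highest enrichment, was used for that.

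RFX2 belongs to the Regulatory Factor X family of transcription factors and is strongly expressed in meiotic and early haploid male germ cells and is needed for the formation of the sperm flagellum. RFX proteins bind the X-box, an inverted repeat of a half-site, as dimers, and known targets in ciliated cells are often bound at the promoter. An exon can carry such a site because it is the first exon of an alternative transcript, or because the letters of an X-box lie within coding or untranslated sequence.

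Binding was measured by chromatin immunoprecipitation and sequencing (ChIP-seq), with antibody sc-10657, on decapsulated testis of wild type (WT) mice of strain background C57BL/6|129/Sv|FVB/N, at postnatal day 29 to 30 per the labels. The study's text describes dissociated germ cells of younger animals instead, and the peak lists settle neither the age nor the material. The 4 samples were 2 ChIP replicates and 2 inputs, and the inputs entered only through the authors' peak calling. Either preparation holds germ cells of several stages, so a peak cannot be assigned to a cell type. Replicate 1 had 39825 peaks, replicate 2 had 21274, and the number of reads behind them is unknown. Peaks are not replicates: intervals cover counting error only, and every p below describes lists from the same 2 replicates, for which the number of mice is not given.

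The X-box was searched as the 14-base palindrome GTTGCCATGGCAAC, which reads the same on both strands, with at most 3 mismatches in the 200 bp around the summit. The whole palindrome, without a mismatch, stood in 18 of the 271 windows (6.64%). Its share was 8.01% in intron, 8.54% in intergenic and 1.19% in promoter peaks, so it was not particular to exon peaks. Of these 18 sites, 12 lay in introns, 4 in 3′ untranslated regions (UTRs), 1 in a 5′ UTR and 1 in coding sequence. The following sites show the palindrome in introns and 3′ UTRs. Tbcel encodes a tubulin chaperone-like protein, Iqsec1 an exchange factor for Arf GTPases, Igfbp5 an insulin-like growth factor binding protein and Elfn2 a leucine-rich repeat membrane protein. All sequences are from GRCm38, are written 5′ to 3′ on the strand of the gene, and have the X-box in capitals.
Tbcel, intron, chr9:42472331-42472360, minus strand: cattcccgGTTGCCATGGCAACcgcagctc
Iqsec1, intron, chr6:90810267-90810296, minus strand: atgctgcaGTTGCCATGGCAACgagcactt
Igfbp5, 3′ UTR, chr1:72858947-72858976, minus strand: taccaaggGTTGCCATGGCAACctcccaac
Elfn2, 3′ UTR, chr15:78670582-78670611, minus strand: gctagtccGTTGCCATGGCAACccagagcc

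Sites in coding exons lie in sequence that is also translated. The 5 sites shown next had 1 or 2 mismatches and lay in coding exons of Cpt1b, a carnitine palmitoyltransferase of the mitochondrial outer membrane, Focad, Ptprq, a receptor-type phosphatase, Filip1l, and App, the amyloid precursor protein. Numbering the palindrome from 1 at its 5′ base, and writing its own base first, the differences were C5T in Cpt1b and Ptprq, A13C in Focad, G4A in Filip1l, and C5T and G9A in App.
Cpt1b, exon 3 of 19, chr15:89424784-89424813, minus strand: ggctggttGTTGTCATGGCAACagttggtt
Focad, exon 42 of 44, chr4:88407197-88407226, plus strand: gccagttgGTTGCCATGGCACCagcagaat
Ptprq, exon 17 of 45, chr10:107662578-107662607, minus strand: accgtgatGTTGTCATGGCAACcacccttg
Filip1l, exon 5 of 5, chr16:57571962-57571991, plus strand: tgtccccaGTTACCATGGCAACctttgcca
App, exon 17 of 18, chr16:84962784-84962813, minus strand: tgggcggcGTTGTCATAGCAACcgtgattg

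The next sites are shown for their place near starts of transcripts other than the 5′-most one. Among the sites shown above, 4 also had their peak summit within 500 bp of such a start. They were Tbcel (79 bp from Tbcel-206), Iqsec1 (140 bp from Iqsec1-201), Elfn2 (190 bp from the antisense transcript 1700041B01Rik-201) and Cpt1b (336 bp from Cpt1b-202, a retained intron). Pifo acts at the primary cilium, Prkar1a is a regulatory subunit of protein kinase A, Cmtr2 methylates the mRNA cap, and Dync2h1 is the heavy chain of the motor of retrograde intraflagellar transport. These 4 had between 1 and 3 mismatches.
Pifo, 17 bp from the start of Pifo-202, chr3:106001496-106001525, minus strand: gcggttccGTTCCCTTGGCAACgtagtaca
Prkar1a, 43 bp from the start of Prkar1a-201, chr11:109650854-109650883, plus strand: cctttaagGTTGCCAAGGCAACcgccctgg
Cmtr2, 299 bp from the start of Cmtr2-201, chr8:110217672-110217701, plus strand: ccagttccGTTGCCATGGCGACccgctgag
Dync2h1, 10 bp from the start of Dync2h1-205, chr9:7177022-7177051, minus strand: gtgaagcgGTCGCCATAGCGACggagcttg
The distances are those of the peak summit from the named start. Dync2h1-205 is annotated as a retained intron. The start of Dync2h1-206, the transcript with the longest coding sequence of that gene, lay 77 bp from the same summit.

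An X-box was present at the summit of 214 of the 271 exon peaks (79.0%, 95% Wilson interval 73.7 to 83.4), against 5 (1.85%) of the windows of equal length 1000 bp further along the chromosome. Over all 2726 combined peaks the shares were 75.4% at the summit and 0.990% in the shifted windows, so that the exon peaks as a whole lay near the background of the list. By mismatches, 18 exon peaks had 0, 55 had 1, 74 had 2, 67 had 3, 32 had 4, 14 had 5 and 11 had 6. The share was lower in exon peaks than in intron peaks, where 514 of 587 (87.6%) held an X-box. The difference was -8.60 percentage points (95% Newcombe interval -14.4 to -3.29), with an exact p of 0.00146 by Fisher's two-sided test and 0.00583 after Benjamini-Hochberg adjustment over 8 comparisons. This call was lost when 4 mismatches were allowed (adjusted exact p = 0.207), in windows around the peak centre (adjusted exact p = 0.0508) and with the list of either replicate alone, and the difference grew to -18.2 percentage points at 2 mismatches (adjusted exact p = 9.72e-07) and to -16.4 in the stronger 50% of the list (adjusted exact p = 0.000265). Against intergenic peaks (860 of 1031, 83.4%) the difference was -4.45 percentage points (95% interval -10.1 to 0.588) and did not pass (adjusted exact p = 0.118).

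**Figure D1:**
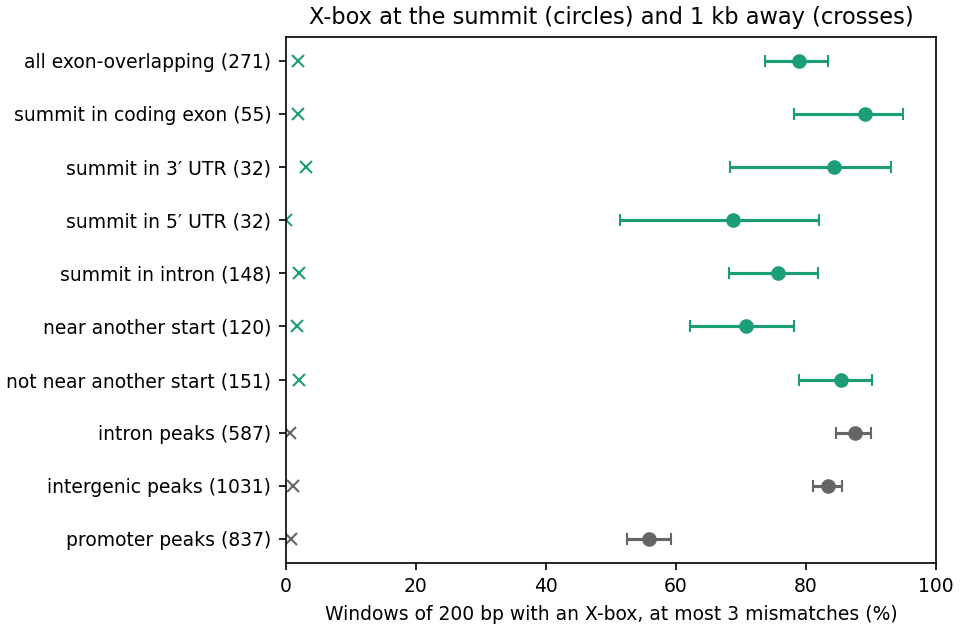
Share of 200-bp windows with an X-box of at most 3 mismatches (horizontal axis, percent) for the exon peaks, their subgroups and the other classes, with the number of peaks in brackets. Circles give the window at the summit with its 95% Wilson interval and crosses the window 1 kb away; exon peaks with the summit in coding sequence reach 89.1%, while those near another start lie at 70.8%, between the other exon peaks and the promoter peaks at 55.9%.

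In the 214 windows with an X-box, the centre of the site lay a median of 6.5 bp from the summit. It was within 20 bp in 174 peaks (81.3%) and within 50 bp in 202. Mismatches were not spread evenly over the palindrome. Counting each position together with its mirror image on the other arm, the base of the palindrome was kept least often at position 4 (72.0% of sites) and position 3 (80.1%), and most often at position 2 (94.6%) and position 1 (93.2%). The same order of positions 3 and 4 below the rest was seen in the 1374 X-boxes of intron and intergenic peaks, where position 4 was kept in 77.1% and position 3 in 85.0%. In the 50 X-boxes within coding sequence, the central position 7 was kept in 96.0% and positions 3 and 4 each in 68.0%. These shares describe sites that were found by the same search, which fixes the number of mismatches.

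**Figure D2:**
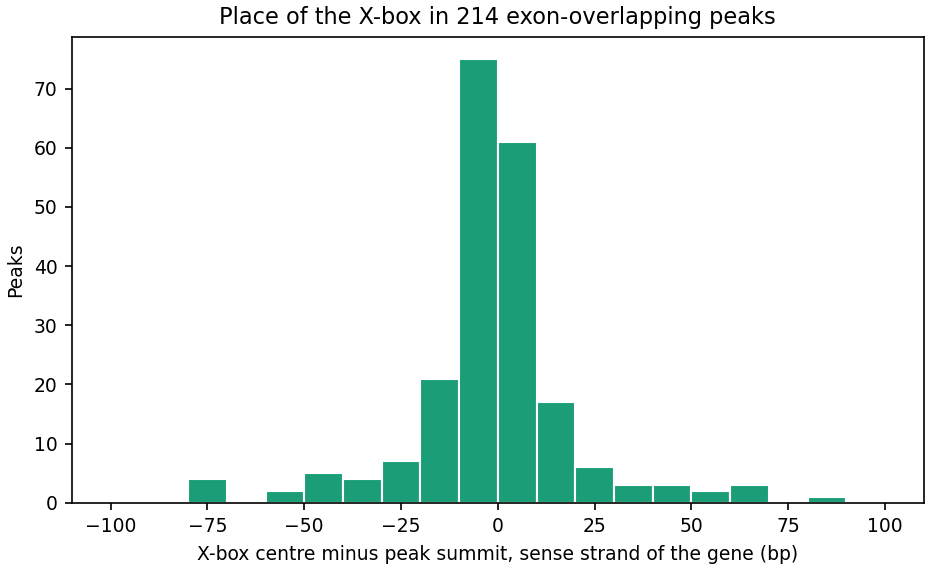
Distance from the peak summit to the centre of the X-box along the strand of the gene (horizontal axis, bp) and number of exon peaks (vertical axis, bins of 10 bp), for the 214 peaks with an X-box. The sites form a single narrow pile around the summit, with 174 of 214 within 20 bp.

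The summit lay in an exon in 119 of the 271 peaks (43.9%, 95% interval 38.1 to 49.9). It was in coding sequence in 55, in a 5′ UTR in 32 and in a 3′ UTR in 32. In 148 peaks it was in an intron, at a median of 120 bp from the nearest exon and at most 722 bp, and in 4 it was outside protein-coding transcripts. An X-box was found in 49 of 55 peaks with a summit in coding sequence (89.1%), in 27 of 32 in 3′ UTRs (84.4%), in 22 of 32 in 5′ UTRs (68.8%) and in 112 of 148 in introns (75.7%). Summits in any exon (98 of 119, 82.4%) and outside exons (116 of 152, 76.3%) differed by 6.04 percentage points (95% interval -3.86 to 15.4), which did not pass the test (adjusted exact p = 0.268). The sign depended on the mismatches allowed, with -12.8 percentage points at 2 mismatches (47.1% against 59.9%, adjusted exact p = 0.0503) and -1.53 at 4.

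Strength was read from the −log10 p that the peak caller gave each combined peak, which grows with the number of reads as well as with the enrichment. It had a median of 64.6 (range 44.0 to 214) in coding sequence, 65.6 in 3′ UTRs, 79.4 in 5′ UTRs and 91.4 (range 43.3 to 448) in introns, values that are given as a description. Among the 681 strongest peaks of the whole list, the top quartile, stood 68 exon peaks (25.1%), against 17.4% of intron and 18.04% of intergenic peaks. By definition the quartile held 681 of all 2726 peaks, so the exon share lay at that of the whole list. It also held 325 of the 837 promoter peaks. The differences that follow set exon peaks against classes that lay below the share of the list. The difference was 7.72 percentage points from intron peaks (95% interval 1.91 to 13.9, adjusted exact p = 0.0196) and 7.05 from intergenic peaks (95% interval 1.67 to 12.97, adjusted exact p = 0.0196). Ranked by fold enrichment in place of −log10 p, both differences had the opposite sign, at -1.46 and -4.61 percentage points, and neither passed. With peaks classed by the summit alone, they were 1.71 and 3.76 percentage points and did not pass. Median fold enrichment over local background was 17.3 in exon, 17.7 in intron and 18.2 in intergenic peaks.

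**Figure D3:**
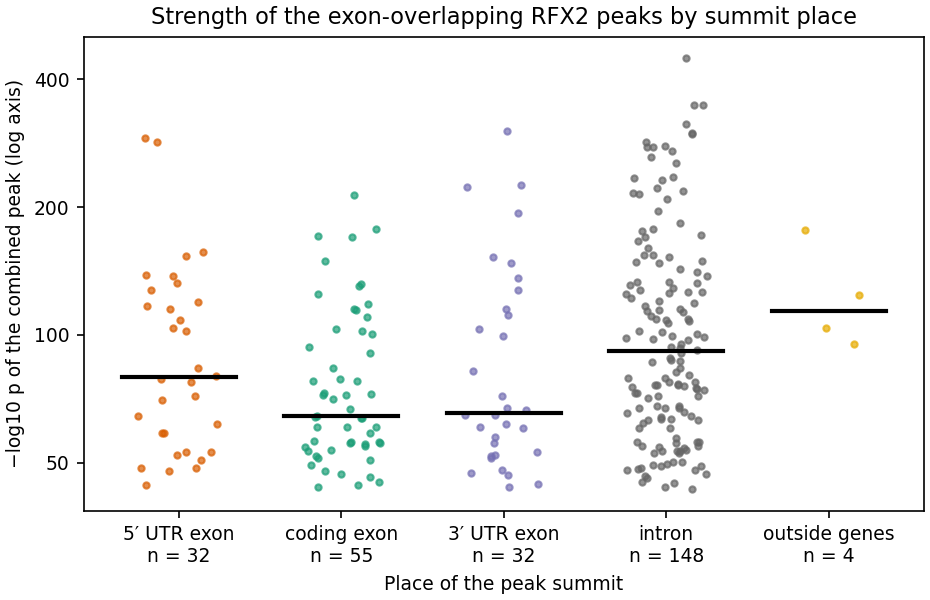
Strength of each of the 271 exon peaks (−log10 p of the combined list, log axis) by the place of the summit, with the median as a bar. Intronic summits extend highest, to 448, and have a median of 91.4, while the medians in coding sequence and 3′ UTRs are 64.6 and 65.6.

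Every one of the 12 strongest exon peaks stood at rank 68 or better in the combined list. Their summits lay in introns in 9 cases, in 5′ UTRs in 2 and in a 3′ UTR in 1, and in none in coding sequence. The strongest was in Caly, a vesicle-associated protein of neurons, at chr7:140080968-140080997 (the 30 bases around the site), where the −log10 p was 448 and the peak scores were 390 in replicate 1 and 174 in replicate 2. A score is the −log10 value of the best overlapping peak in the list of that replicate. Its X-box was 1 base from the palindrome, C11G, and stood 0.5 bp from the summit in intron 1. Pef1, a calcium-binding EF-hand protein, followed at rank 16 with scores of 292 and 118 and the single difference T3A.
Caly, intron 1, minus strand: ctgcctttGTTGCCATGGGAACccgagatg
Pef1, intron 1, chr4:130107216-130107245, plus strand: agttctcaGTAGCCATGGCAACcgcctggg
Over the 12 the scores were 206 to 390 in replicate 1 and 80.6 to 174 in replicate 2. High scores are favoured by the choice of the 12, since the combined list was taken as a call on reads of both replicates.

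The other 10 were Rab27a, a GTPase of vesicle transport (rank 17), Zfp169, a zinc finger protein (rank 35), Glo1, glyoxalase (rank 46), Usp30, a mitochondrial deubiquitinase (rank 49), Etfbkmt, a lysine methyltransferase (rank 50), Cmtr2 (rank 53), Dync2h1 (rank 57), Mapk8ip1, a scaffold of JNK signalling (rank 59), Afap1l1, an actin filament-associated protein (rank 67), and Tmem9 (rank 68). Of the 12, 8 held an X-box and 4 did not, namely Rab27a, Zfp169, Glo1 and Usp30. The Glo1 peak had its summit in the 3′ UTR, 36184 bp downstream of the TSS, and its closest stretch to the palindrome had 6 mismatches, yet it scored 253 in replicate 1 and 133 in replicate 2. In 7 of the 12, another annotated start lay within 500 bp of the summit.

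Over all exon peaks, another annotated start lay within 500 bp of the summit in 120 of 271 (44.3%, 95% interval 38.5 to 50.2). The share was 5.79% (34 of 587) in intron peaks and 33.2% over all combined peaks, a background raised by promoters with several starts. The difference from intron peaks was 38.5 percentage points (95% interval 32.3 to 44.7, adjusted exact p = 5.76e-39). A start of a coding transcript is itself the edge of an exon, so a peak that covers one cannot be classed as an intron peak. The class rule thus largely fixes this difference, and its p gives no separate support. Counting starts of non-coding transcripts, whether or not a coding start was also near, the shares were 21.8% and 5.62%. The difference was 16.1 percentage points (adjusted exact p = 8.64e-11). Of the 59 exon peaks so counted, only 27 had no coding start within 500 bp, so the choice of the peaks still enters this difference. Of the 34 intron peaks near another start, 2 were near a coding one. This alternative was chosen after the data were seen, and many such transcripts share exons with coding ones.

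Of the 120 peaks near another start, 93 were near one of a coding transcript, and in 34 the start within 500 bp was that of the transcript with the longest coding sequence of the gene. The summit was a median of 59.0 bp from the start, and within 100 bp in 78. Nearly all peaks with a summit in a 5′ UTR were of this kind (30 of 32), against 71 of 148 in introns, 16 of 55 in coding sequence and 3 of 32 in 3′ UTRs. A 5′ UTR begins at the start of its transcript, so these shares follow in part from the annotation. Examples with the longest coding transcript were Usp30-201 (121 bp), Etfbkmt-209 (67.0 bp), Tmem9-201 (6.0 bp) and Intu-202 (48.0 bp), the last of a planar cell polarity gene needed for ciliogenesis. The Tbcel peak, with the whole palindrome, lay 79.0 bp from the start of Tbcel-206. In Prkaca, the catalytic subunit of protein kinase A, the peak was weak (rank 2639) and lay 209 bp from the start of Prkaca-202.

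Peaks near another start differed in sequence from the remaining exon peaks. An X-box was present in 85 of 120 (70.8%) near a start and in 129 of 151 (85.4%) elsewhere, a difference of -14.6 percentage points (95% interval -24.5 to -4.76, adjusted exact p = 0.00850 over 4 comparisons chosen after the data were seen). Peaks near a start held an X-box more often than the 837 promoter peaks (55.9%), by 14.9 percentage points (95% interval 5.63 to 23.04, adjusted exact p = 0.00842). Exon peaks away from a start were at 85.4%, and intron and intergenic peaks away from a start at 87.9% and 84.8%. Neither difference passed, and the intervals were -9.41 to 3.15 and -6.23 to 5.97 percentage points. The G+C content of the 200 bp around the summit moved with this split, with 56.6% ± 8.16 (SD) near a start, 51.0% ± 6.60 elsewhere and 59.5% ± 7.22 in promoter peaks, and its part in the result was not tested. With 4 mismatches allowed the difference was -2.89 percentage points and did not pass.

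The 57 exon peaks that held no X-box were searched for other spacings of the arms, a search added after the data were seen. The outer 6 letters of each arm, GTTGCC and its reverse complement GGCAAC, were searched with 0 to 6 bases between them and at most 2 mismatches over the 12 letters. The palindrome has 2 bases there. In these 57 windows a pair was found at spacing 1 in 4, at spacing 2 in 8 and at spacing 3 in 8, with 0, 1 and 0 in the shifted windows, and 19 peaks had at least 1 of the 3. Spacings 0, 4, 5 and 6 gave 0, 1, 1 and 3 peaks, with 0 in the shifted windows. No spacing passed an exact McNemar test of summit against shifted windows, with adjusted exact p of 0.292, 0.137 and 0.0547 at spacings 1, 2 and 3. At spacing 1 only 4 windows differed, so that test could not pass (exact p = 0.125 before adjustment). At spacing 3 all 8 windows that differed had the pair at the summit, the most extreme outcome for 8. Among all 271 exon peaks, most with an X-box, spacings 1, 2, 3 and 5 passed (adjusted exact p = 0.00798 at 1 and 2.0e-05 at 3 by the same test). Over all combined peaks, pairs at spacing 1 stood in 6.71% of summit windows and 0.697% of shifted windows, and pairs at spacing 3 in 7.12% and 0.440%. Cacna1s, a calcium channel of skeletal muscle, and Cfap126, a protein of the basal body, matched all 12 letters, and Adamts3, a procollagen protease, had 1 mismatch. Capitals mark the pair with the bases between its arms.
Cacna1s, coding exon 40 of 44, spacing 3, chr1:136116121-136116151, plus strand: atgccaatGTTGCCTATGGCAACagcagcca
Cfap126, 5′ UTR, spacing 1, chr1:171123125-171123153, plus strand: cttctgcaGTTGCCAGGCAACaagtgtaa
Adamts3, coding exon 3 of 22, spacing 3, chr5:89861303-89861333, minus strand: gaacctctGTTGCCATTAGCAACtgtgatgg

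**Figure D4:**
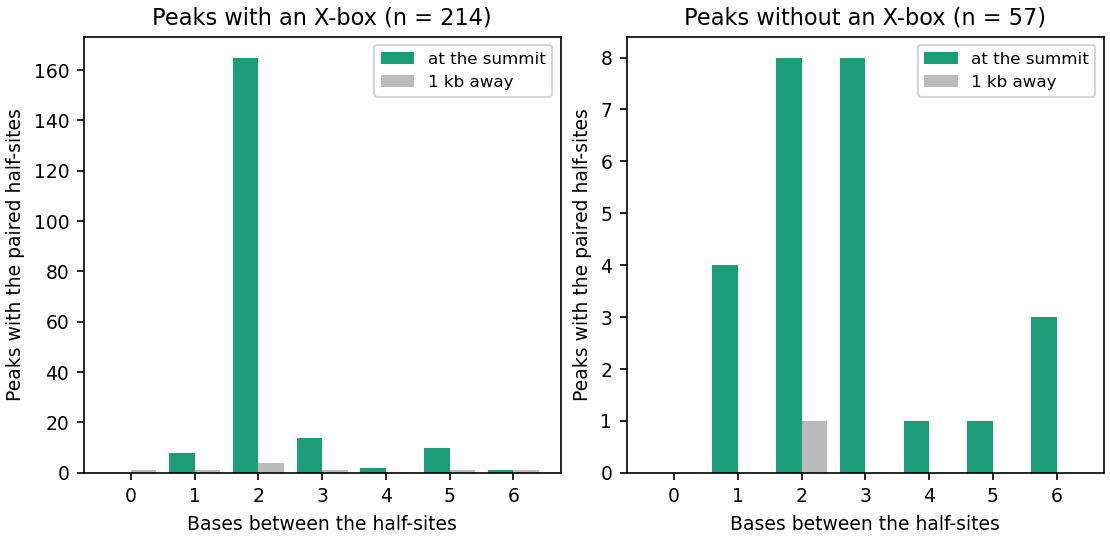
Number of exon peaks whose 200-bp window held the paired 6-letter arms with at most 2 mismatches (vertical axis), by the number of bases between the arms (horizontal axis), at the summit and 1 kb away. The left panel, for the 214 peaks with an X-box, has its bar at 2 bases by the choice of those peaks; the right panel, for the 57 without, has 4, 8 and 8 peaks at 1, 2 and 3 bases.

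A single arm with the letters GTTGCTAGG, searched without mismatch on both strands, was present at the summit of 14 of the 57 exon peaks without an X-box (24.6%) and in 0 of their shifted windows, which allows up to 3 windows by counting error alone. It was present in 4 of the 214 with an X-box (1.87%), in 6.42% of all combined peaks and in 0.330% of all shifted windows. Among the 670 combined peaks of all classes without an X-box, which include these 57, it was present in 141 (21.04%). The share in exon peaks without an X-box thus lay near that of such peaks in the whole list. The word overlaps the pair searched above in its first letters, and it was picked after it was seen in Zfp169 and Meig1. It was held by some of the strongest exon peaks, Zfp169 (−log10 p 314), Usp30 (299), Wdr17 (236) and Mast3 (231), and by Cenpj (157), which is needed for centriole assembly, and Meig1 (154), which is needed for spermiogenesis. Zfp169 and Meig1 had the same 14 bases at the summit. In all, 31 of the 57 windows held this word or a pair at spacing 1, 2 or 3, and 26 held neither. In the lines that follow, capitals mark the 14 bases closest to the palindrome.
Zfp169, intron, chr13:48498086-48498115, minus strand: ctctcacaGTTGCTAGGAGACGgtccagcc
Meig1, 5′ UTR at Meig1-203, chr2:3419071-3419100, minus strand: gtcacggcGTTGCTAGGAGACGcgccggtt
Cenpj, 5′ UTR at Cenpj-201, chr14:56571974-56572003, minus strand: gcatagagCATCCCCTAGCAACgtttatgg

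Among the 50 X-boxes in coding sequence, 43 lay within a single coding exon of the transcript with the longest coding sequence. The first base of the palindrome was the first base of a codon in 21, the second in 16 and the third in 6. The strongest of these peaks was in Ino80c, a subunit of the INO80 chromatin remodelling complex, with the whole palindrome in exon 3 of 6, a −log10 p of 214 and scores of 176 and 43.2 in the replicates. Vcl, which encodes vinculin, followed with 177 and scores of 144 and 32.3, Cpt1b with 171 and scores of 139 and 48.1, and Cabin1, a calcineurin-binding protein, with 170.5 and scores of 124 and 58.1. All 4 scored higher in replicate 1, as most peaks did. The median ratio of replicate 2 to replicate 1 was 0.41 in exon peaks and 0.40 in all combined peaks.

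A pair of related genes, noticed after the values were seen, carried the site at a like place in their coding sequence. Hdac5 and Hdac7 encode class IIa histone deacetylases, and their peaks ranked 1934 and 1572. The X-box lay in exon 23 of 29 of Hdac5-201 and in exon 19 of 25 of Hdac7-204, began at the second base of a codon in both, and had the same 3 differences, G1T, T3C and G4A. Of the 60 bases around it, 41 were coding in each gene and the others intronic, and 41 of the 60 aligned bases were the same in both. The scores were 36.1 and 25.4 in Hdac5 and 69.7 and 7.88 in Hdac7, in replicates 1 and 2. In Hdac7 the X-box stood 71.5 bp from the summit.
Hdac5, chr11:102197745-102197804, minus strand: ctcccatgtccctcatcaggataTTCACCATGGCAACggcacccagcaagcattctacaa
Hdac7, chr15:97798303-97798362, minus strand: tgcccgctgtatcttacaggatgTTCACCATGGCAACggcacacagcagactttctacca

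In the 18 peaks with the whole palindrome the −log10 p ranged from 54.5 to 253.5 with a median of 115, against 79.0 over all exon peaks. Their ranks ran from 103 to 2197, and 6 of the 18 stood in the top quartile of the list, against 25.1% of all exon peaks. After Tbcel, Elfn2, Ino80c and Iqsec1 came Kcnab2 (rank 471), a subunit of potassium channels, Chrna1 (rank 635), the muscle acetylcholine receptor subunit, Efnb3 (rank 697), an ephrin ligand, Farp2 (rank 747), Trpv6 (rank 811), a calcium channel, Igfbp5 (rank 818), Ablim3 (rank 905), Meltf (rank 991), Glyr1 (rank 1113), Slc9c1 (rank 1367), the sperm-specific sodium and proton exchanger, Cacna1g (rank 1530), a T-type calcium channel, Celf5 (rank 1884), Cracr2a (rank 1938) and Atp11a (rank 2197). In 5 of the 18 another start lay within 500 bp. The Atp11a peak scored 36.1 in replicate 1 and 20.1 in replicate 2, far below Tbcel with 199.7 and 86.3 for the same 14 bases.

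Genes of the cilium and of sperm formation were looked up by list. Of 240 listed genes found in the annotation, 5 held an exon peak (2.08%), against 267 of 21853 protein-coding genes (1.22%). In the same lists, the promoter of 102 genes (42.5%) held a combined peak, against 4.48% of all protein-coding genes. Exon peaks were found in 1 of 32 genes of intraflagellar transport (Dync2h1), 1 of 73 of the axoneme and motility (Spag1, an assembly factor of dynein arms) and 3 of 47 of the centriole and centrosome (Cenpj, Cep112 and Odf2, an outer dense fibre protein). None was in the 13 genes of the Bardet-Biedl syndrome list, the 20 of the transition zone, the 41 of spermiogenesis or the 14 of the RFX family and ciliogenic regulators.

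The scores of these 5 genes differed widely. Dync2h1 scored 250.5 in replicate 1 and 121 in replicate 2, Cenpj 129 and 46.3, Spag1 84.8 and 26.8, Cep112 40.9 and 27.3, and Odf2 32.7 and 20.97. All 5 had a start within 500 bp of the summit, at 10 bp for Dync2h1-205, 148 bp for Cenpj-201, 135 bp for Spag1-202, 4.0 bp for Cep112-211 and 84.0 bp for Odf2-209. The longest coding transcript of Dync2h1, Dync2h1-206, started 77 bp from its summit. Other exon peaks near a start, named after their values were seen, were in Dnal4, a dynein light chain (22.0 bp from Dnal4-205), Spef1, a microtubule-bundling protein of the flagellum (164 bp from Spef1-203), and Ttll10, a glycine-adding enzyme of the tubulin ligase-like family (4.0 bp from Ttll10-202). Their −log10 p values were 138, 119 and 133.

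Whether host genes also had an RFX2 peak at the promoter was compared next. A combined peak met the 5′-most promoter of the same gene in 13 of 271 exon peaks (4.80%) and in 20 of 587 intron peaks (3.41%), while 4.48% of all protein-coding genes had such a peak. The difference between the classes was 1.39 percentage points (95% interval -1.28 to 4.84) and did not pass (adjusted exact p = 0.342). With the promoter peaks of the replicate 1 and replicate 2 lists, 23 (8.49%) and 20 (7.38%) of the exon peaks had one. The shares of intron peaks with these lists were 7.84% and 6.64%, and neither difference passed (adjusted exact p = 0.787 and 0.667 by Fisher's test). The replicate lists are longer than the combined list, so the 4.48% is no background for them. The 13 were in Cabin1, Celf6, Lrif1, Cep112, Arid4a, Rilpl2, Itsn1, Dixdc1, Odf2, Ranbp10, Lmna, Ankfn1 and Dad1.

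Genes with 2 exon peaks were App, C530008M17Rik, Chrna1, Nova2, a splicing factor of neurons, Pcdh15, a protocadherin of hair cells, Piezo2, a mechanosensitive channel, and Vcl. In Chrna1 the peaks had almost the same strength, with scores of 90.6 and 33.1 in replicates 1 and 2 for the summit in intron 6, where the palindrome was whole, and of 90.8 and 27.3 for the summit in exon 9, with 3 mismatches. In Nova2 they differed, with scores of 196 and 88.1 against 72.1 and 31.6. In Vcl the coding peak scored 144 and 32.3 and the 3′ UTR peak 37.9 and 10.3. Neighbouring peaks of a gene are not independent members of the class.

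All 271 exon peaks were met by a peak in each replicate list, as were 2723 of the 2726 combined peaks. The replicate lists reach down to scores near 2, and which of the study's calls they hold is not stated. The combined peaks start at a −log10 p of 43.2, so overlap with lists this deep tells little about how well the replicates match. Scores ranged from 19.7 to 390 with a median of 62.2 in replicate 1, and from 3.96 to 174 with a median of 25.9 in replicate 2. Spearman's rho between the replicates was 0.69 across the 271 peaks, given as a description, since all points come from the same libraries and the combined list was selected from them. It was 0.79 in promoter, 0.58 in intron and 0.59 in intergenic peaks. Ranked among the combined peaks met by both replicates, 137 of 271 exon peaks (50.6%) stood lower in replicate 2 than in replicate 1, against 616 of 1029 intergenic peaks (59.9%) and 51.0% of all such peaks. Exon peaks thus lay at the share of the list, with intron peaks at 58.9% and promoter peaks at 34.9%. The difference from intergenic peaks was -9.31 percentage points (95% interval -15.9 to -2.68, adjusted exact p = 0.0185). It was -5.32 percentage points for summits in coding sequence and -4.39 in the stronger 50% of the list, and did not pass in either.

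**Figure D5:**
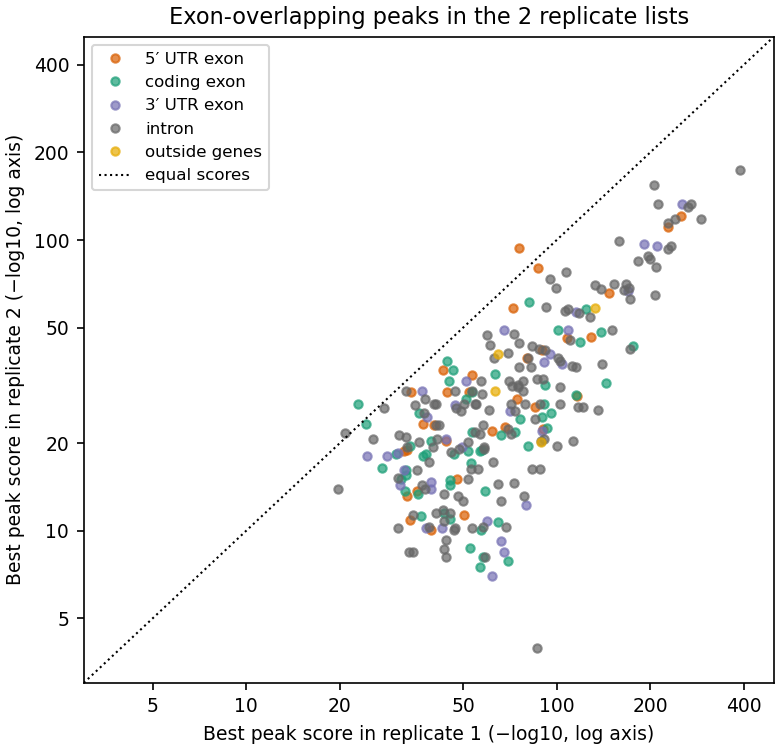
Best peak score in replicate 1 (horizontal axis) against replicate 2 (vertical axis), both on a −log10 scale and log axes, for the 271 exon peaks, coloured by the place of the summit. Most points lie below the dotted line of equal scores, with a median ratio of replicate 2 to replicate 1 of 0.41.

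Reads matching the human genome had been removed by the authors from a second run of replicate 2 only, a step that can also take mouse reads from conserved sequence. The ratio of the score in replicate 2 to that in replicate 1 had a median of 0.35 in exon peaks with a coding summit. It was 0.44 in exon peaks with a summit in a 3′ UTR, 0.46 in a 5′ UTR and 0.41 in an intron. Over the whole list it was 0.40, with 0.35 in intron, 0.33 in intergenic and 0.495 in promoter peaks. The part of the read removal in these values was not tested.

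At the limits of the rule, the exon peak with the least overlap shared 1 bp with an exon of Abcc8 and had a −log10 p of 65.4, and the next shared 8 bp in Limd1 (76.2) and 11 bp in Kifc3 (49.4). The nearest intron peaks missed an exon by 4 bp in Dbn1 (76.7) and 15 bp in Muc4 (68.3). Over the 271 peaks the overlap had a median of 212 bp and was under 100 bp in 49. The exon peaks nearest to a promoter window were 13 bp from that of Erich2 (46.3), 25 bp from that of Rtn1 (53.6) and 54 bp from that of Cpt1b (171). Promoter peaks that met an exon overlapped the promoter by as little as 24 bp in Crip1 (47.7) and 33 bp in Ndufa4l2 (168).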

How the data were processed

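ChIP-seq peaks came from 2 replicates of WT mice, grouped and numbered by sample title. According to the submitters' processing notes and methods, base calls were made with CASAVA 1.8.2 and reads were mapped to GRCm38 with Bowtie 0.12.7. Reads with several locations were discarded, which thins out peaks in repeats. Peaks were called against input with MACS2 2.0.10.20130520. The deposited list of each replicate gives 1 value per peak on a −log10 scale, and whether it derives from p or q is not given in the sources used here. The third deposited list, called combined here, gives a score, the fold enrichment as a ratio, −log10 p, −log10 q and the summit. It is filed under replicate 2, its peak names begin with "all", and it was taken as a call on pooled reads, which the authors do not state. The deposited lists hold no read counts, so the depth is unknown.

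Sequence came from RefSeq (GRCm38 patch 6) and gene models from GENCODE for 21853 protein-coding genes. Each peak took the first class it met by 1 bp, in the order promoter, exon, intron, intergenic. Shares have 95% Wilson intervals, and differences have Newcombe intervals and Fisher's exact test, two-sided, with Benjamini-Hochberg adjustment and a threshold of 0.05 (Python 3.11.15, scipy 1.17.1), checked on made-up data. The exon peaks, the lists and the tests were chosen with earlier results of these data known. The genes named were the 12 strongest exon peaks, members of the gene lists, peaks with the whole palindrome, genes with 2 exon peaks, and peaks at the limits of the rule. Further genes were named after their values were seen, where the text says so or as examples of a group. Of 243 listed genes, 3 were not found by symbol. Alternatives covered the mismatches, windows, promoter and class definitions, the stronger 50% of the list and each replicate list alone, for which as many top peaks as in the combined list were taken. The authors' columns hold no comparisons between groups.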

Additional observations from a re-analysis of the deposited data

How the results depend on the processing

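Of 64 recomputed values, 38 kept their direction and their side of the threshold, or lay within the interval of the value reported. The share of combined peaks in the exon class moved to 4.73% with the class taken by the summit alone, 4.33% by the peak centre, 11.4% with promoters of 500 bp upstream to 50 bp downstream and 6.24% with promoters at every coding start, and was 8.84% to 9.32% with 1 replicate list. The share of exon peaks with the summit in an exon was 35.4% in the stronger 50% of the list. The X-box difference from intron peaks no longer passed at 4 mismatches (-2.92 percentage points), around the peak centre (-7.74) or with 1 replicate list (-7.07 to -2.38), the latter also read around the centre. The difference from intergenic peaks passed at 2 mismatches (-12.97) and in the stronger 50% (-13.03), and was -4.90 to -1.52 with 1 replicate list. It was 0.0863 at 4 mismatches. The difference between summits in and outside exons turned to -12.8 at 2 and -1.53 at 4 mismatches, and that in host genes with a promoter peak to -0.646 in the stronger 50%, and none of these passed. The top-quartile differences from intron and intergenic peaks turned to -1.46 and -4.61 percentage points by fold enrichment, and did not pass with a threshold of 50% (7.60 and 5.10) or by the summit alone (1.71 and 3.76). They passed with either replicate list, at 9.41 to 11.99 and 7.11 to 9.40. The difference in rank between replicates did not pass for coding summits (-5.32) or in the stronger 50% (-4.39). The start difference, which the class rule largely fixes, passed under each alternative and was 36.0 to 39.3 percentage points with 1 replicate list. The X-box difference by nearness to a start also did not pass at 4 mismatches (-2.89) or in the stronger 50% (-13.1). The causes were not tested. No paired analysis was possible because the inputs, which share replicate numbers with the ChIP samples, have no peak list used here. The lists hold no read counts, so no limit from depth was computed, and with 2 replicates the spread between animals was not estimated.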
